A study of Mus musculus with 17 samples.

Results

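The comparison described here sets astrocytes of the ventral posteromedial nucleus (VPM), the somatosensory relay nucleus of the mouse thalamus, against astrocytes of the ventral part of the medial geniculate nucleus (MGv), its auditory counterpart. The nucleus named in each sample label decided which libraries were used, and 8 of the 17 libraries of the series belong here, 4 from the VPM (replicates a to d) and 4 from the MGv (replicates a to d). All 8 were bulk RNA-seq libraries of Gfap::GFP mice of the FVB strain at postnatal day 7 (P7), and each was made from 4 pooled brains. No group was treated, and the labels differ in the nucleus of origin and, as described below, in a library number. Brains were sliced, the nuclei were dissected and dissociated with papain, and cells with green fluorescence were sorted. Because green fluorescent protein (GFP) was driven by *Gfap* sequences in this line, a library holds whichever cells had the reporter on at P7, and the dissection sets which neighboring tissue came along. The other 9 libraries, 5 of the dorsolateral geniculate nucleus (dLG) and 4 of the somatosensory cortex, did not enter the fit.

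Sensory thalamic nuclei each receive one modality and project to the matching primary cortical area, and they are laid out in the embryo by signals and transcription factors that partition the diencephalon. Astrocytes descend from the same progenitor zones. They take up glutamate and potassium, are coupled to each other by connexin gap junctions, convert thyroid hormone into its active form, provide cholesterol and lactate, and secrete proteins that shape synapses and the extracellular matrix.

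The 8 libraries held between 18213687 and 21519981 counts, so that 3 counts corresponded to between 0.137 and 0.169 CPM (counts of a gene per 1000000 counts of its library), and between 21567 and 23058 genes had at least 1 count. Levels below are CPM of each library scaled by its trimmed mean of M values (TMM) factor, listed for replicates a to d in that order. A log2 fold change (log2FC) is the VPM over the MGv, and a gene is called when edgeR's quasi-likelihood test gave an adjusted p under 0.1. The p values measure the spread between these pools, and intervals and floors given below cover counting error only. In a principal components analysis of the 500 most variable genes, the first component took 48.9% of the variance and placed all 4 VPM libraries on the other side of 0 from all 4 MGv libraries. VPM replicate b stood apart from the other VPM libraries with a score of 7.26 on that component, whereas VPM replicates a, c, and d scored between 26.6 and 33.5 and the MGv libraries between -30.7 and -18.9. The labels also carry library numbers, and those of VPM replicates a and b belong to another number series than those of the other 6 libraries. What the number stands for is not given, so the comparison was also fitted on the 6 libraries of the shared series alone, 2 of the VPM and 4 of the MGv. *Ddx3y*, a gene of the Y chromosome, stood at 38.7, 13.2, 31.3, and 45.8 CPM in the MGv and 37.2, 47.8, 17.6, and 0 CPM in the VPM. It was at 0 only in VPM replicate d, and the part of the pools' sex in the results was not tested.

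The libraries carried astrocyte RNA in both nuclei. *Aqp4*, the water channel of astrocyte endfeet, stood at 886, 1840.0, 3127, and 1692 CPM in the MGv and 1496, 2100.0, 2159, and 1809.9 CPM in the VPM. *Aldh1l1*, a folate enzyme used as an astrocyte marker, was at 487, 449.8, 857, and 555 CPM and 319.9, 594, 445, and 516 CPM. Both sets of libraries overlapped for both genes. Bulk libraries cannot tell fewer cells of a type from less RNA per cell, and *Aldh1l1* overlaps an antisense gene in 13.4% of its exonic length. Of 16 astrocyte markers, 4 were called higher in the VPM, 2 were called higher in the MGv, and 10 were not called, beside 9.35% of all genes tested that were called higher in the VPM and 12.7% that were called higher in the MGv. The median log2FC of the 16 was -0.051, beside -0.036 over all genes tested. Without VPM replicate c, or with the shared number series alone, 2 members were called higher in the VPM.

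RNA of other cell types was present too. The summed level of 10 pan-neuronal markers ranged from 783 to 2037 CPM in the MGv and from 895 to 1759 CPM in the VPM, and 1 of the 10 was called in each direction, the neurofilament gene *Nefm*, which overlaps *Nefl* in 19.2% of its exonic length, toward the VPM and the RNA-binding protein gene *Elavl3* toward the MGv. Within the VPM that sum was highest in replicate d and lowest in b, and within the MGv it was highest in replicate a and lowest in c. The 1 call in each direction stands beside 9.35% of all genes tested toward the VPM and 12.7% toward the MGv. Without VPM replicate a, b, c, or d or without MGv replicate a, b, or d, *Elavl3* was no longer called, nor was it with length and GC trends removed or on the shared series described above. The summed level of 7 oligodendrocyte precursor markers ranged from 6609 to 9178 CPM in the MGv and from 7080.5 to 9320.4 CPM in the VPM. Vascular, ependymal, meningeal, and GABAergic neuron markers were low, with sums of at most 16.3, 14.6, 33.6, and 29.2 CPM in any library. The endothelial tight junction gene *Cldn5* was at 0 in MGv replicates a and b and in VPM replicate b and reached 5.8 CPM elsewhere, and *Gad2*, a GABA-synthesizing enzyme of inhibitory neurons, reached 2.05 CPM at most. Of these low lists, 1 member was called, the meningeal proteoglycan gene *Dcn*, at 0.244, 7.44, 10.3, and 4.43 CPM in the MGv and 0.141, 0.282, 0.442, and 1.07 CPM in the VPM (log2FC = -3.51, SE = 0.89, adjusted p = 0.0271), with overlapping libraries.

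**Figure D1:**
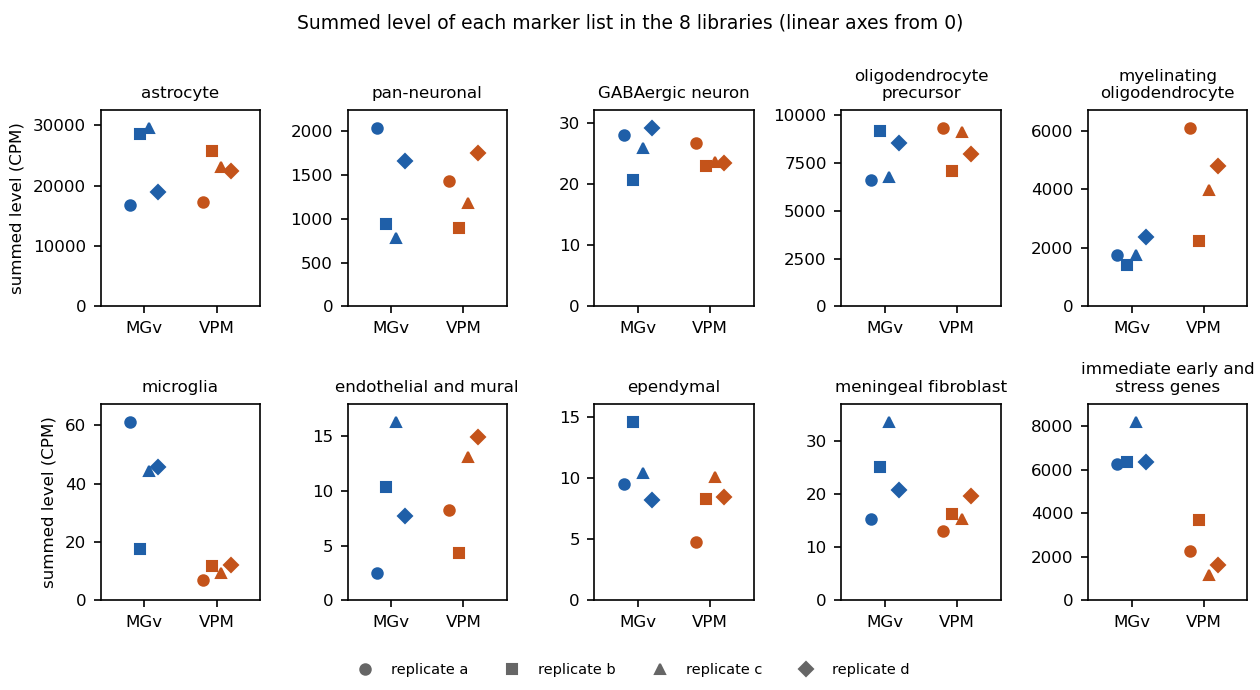
Summed level (CPM, linear axes from 0) of 9 marker lists and of the immediate early and stress gene list in the 4 MGv (blue) and 4 VPM (orange) libraries, with 1 symbol per replicate. The libraries of both nuclei overlapped for astrocyte, neuronal, precursor, and myelinating markers, and they did not overlap for microglia markers or immediate early genes.

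The nuclei differed in many genes, with more calls toward the MGv than toward the VPM. Of 16273 genes tested, 1522 were higher in the VPM (9.35%) and 2060 were higher in the MGv (12.7%). Among all genes tested, 10.8% had all 4 VPM libraries above all 4 MGv libraries and 10.5% the reverse. Both held for 1252 genes called higher in the VPM and 1453 genes called higher in the MGv. Large differences were mainly toward the MGv, where 901 called genes had a log2FC below -1, beside 241 called genes with a log2FC above 1. Fewer genes were called when VPM replicate a (694 and 1174), c (719 and 1221), or d (823 and 1249) was left out, with the VPM count first, and leaving out VPM replicate b gave 1501 and 2267. The fit on the shared series alone called 389 genes higher in the VPM (2.22% of those it tested) and 947 higher in the MGv (5.4%), of which 379 and 806 were also called with all 8 libraries.

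**Figure D2:**
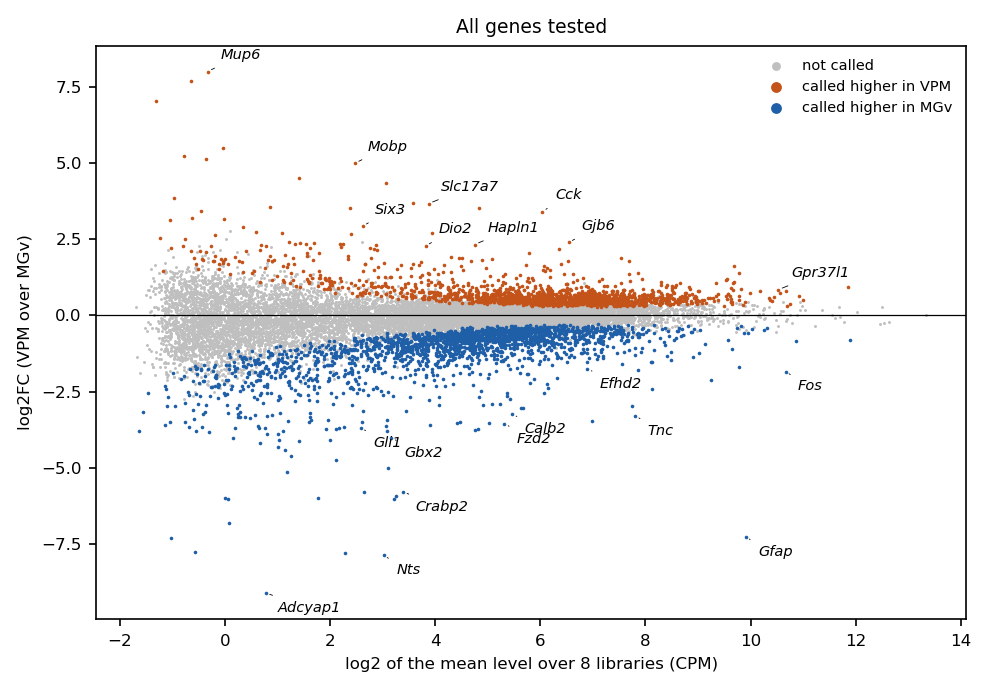
Difference between the nuclei (log2FC, VPM over MGv) against the log2 of the mean level over the 8 libraries (CPM) for each gene tested. Orange points mark the 1522 genes called higher in the VPM and blue points the 2060 genes called higher in the MGv, whose range extends further from 0.

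Direction went with gene length and base composition. Among the decile of genes with the longest exonic sequence (at least 9592 bp), 30.9% were called higher in the MGv and 4.86% higher in the VPM, whereas among the shortest decile (at most 1373 bp) the shares were 4.55% and 4.98%. Among the decile with the highest GC content (at least 57.7%), 23.5% were called higher in the MGv and 2.7% higher in the VPM, and in the decile with the lowest GC content (at most 40.7%) 3.81% and 15.9%. The libraries did not share this equally. In the decile of highest GC content, the median deviation from a gene's mean log2 level was 0.38 in MGv replicate b, between -0.033 and 0.15 in MGv replicates a, c, and d, and between -0.18 and -0.051 in the VPM. When each library's own trend with length and GC content was removed, 1569 genes were called higher in the VPM (9.64%) and 1312 higher in the MGv (8.06%), of which 1063 and 1175 were called in both fits. The share of calls toward the VPM was thus 42.5% without and 54.5% with that correction. List counts below with the trend removed stand beside 9.64% of all genes toward the VPM and 8.06% toward the MGv. Those from the shared series stand beside 2.22% and 5.4%.

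**Figure D3:**
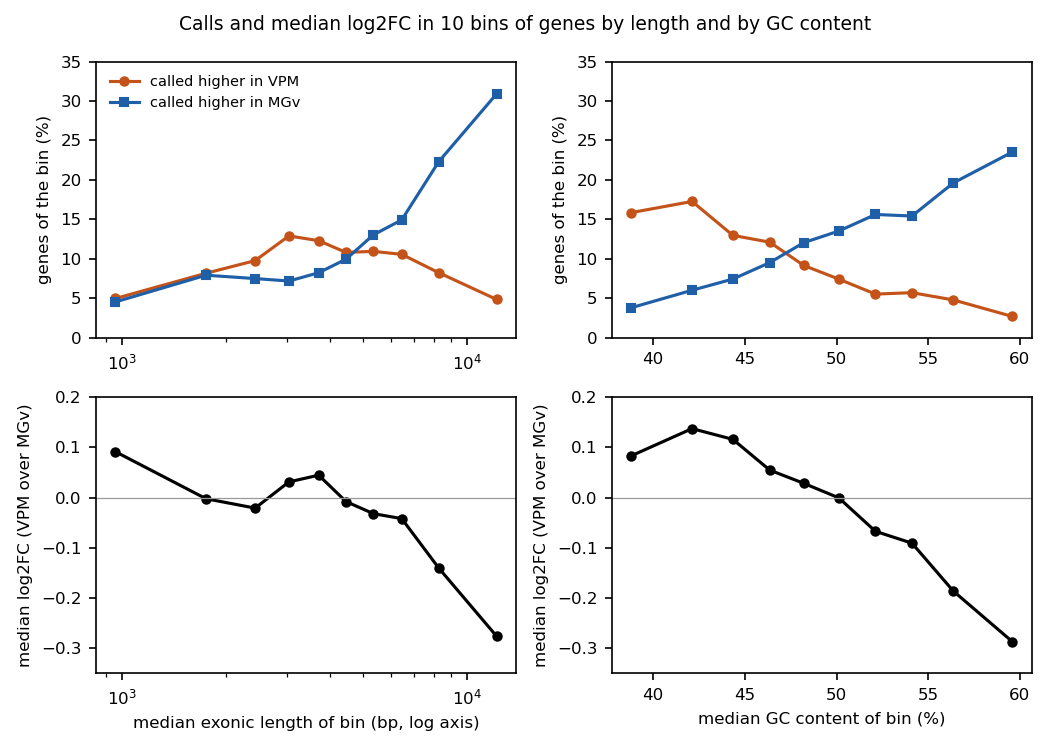
Genes tested in 10 bins of equal size by exonic length (left, log axis) and by GC content (right). The upper panels give the percentage of each bin called higher in the VPM (orange) or in the MGv (blue) and the lower panels the median log2FC, which fell to -0.28 in the longest bin and -0.29 in the bin of highest GC content.

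Immediate early genes, which cells switch on within minutes of calcium entry, growth factors, or handling, were lower in the VPM. None of 23 immediate early and dissociation stress genes was called higher in the VPM, 14 were called higher in the MGv, and 9 were not called, with a median log2FC of -1.54. Among all genes tested, 9.35% were called higher in the VPM and 12.7% in the MGv. *Btg2*, an antiproliferative transcription cofactor, stood at 264, 423, 476, and 356 CPM in the MGv and 69.6, 68.3, 25.7, and 29.8 CPM in the VPM (log2FC = -2.97, SE = 0.337, adjusted p = 0.00121). *Junb*, a subunit of the AP-1 transcription factor, was at 347, 473, 637, and 421 CPM in the MGv and 90.4, 157, 46, and 60.1 CPM in the VPM (log2FC = -2.41, SE = 0.342, adjusted p = 0.00293). For both genes every VPM library lay below every MGv library, and VPM replicates c and d were the lowest. *Egr1*, a zinc finger factor, and *Ier2* were called in the same direction, with log2FCs of -1.70 and -1.52. *Fos*, the best-known AP-1 subunit, named here after its values were seen, was at 2269, 2635, 2933, and 2331 CPM in the MGv and 724, 1427, 209, and 467 CPM in the VPM (log2FC = -1.85, SE = 0.433, adjusted p = 0.0204), and its libraries spread more widely in the VPM than in the MGv. The heat shock genes of the list, *Hspa1a*, *Hspa1b*, *Hsp90aa1*, and *Dnajb1*, were not called. The summed level of the list ranged from 6266 to 8184 CPM in the MGv and from 1152 to 3711 CPM in the VPM. Within the VPM it was highest in replicate b, the library that stood apart, and without that library 17 members were called higher in the MGv. On the shared series alone 16 were called.

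Promoters of this list are shown because 14 of its members were called in the same direction. Calcium and cyclic AMP can act on such genes through the cyclic AMP response element, whose core half-site is TGACGT. Whether that element has a part in the calls was not tested. The 250 bases before the RefSeq start site (GRCm38.p6) are given for *Fos* (chr12:85473640-85473889, plus strand), *Btg2* (chr1:134079156-134079405, minus strand), and *Atf3* (chr1:191183334-191183583, minus strand), a stress-induced factor named after its values were seen, at 11, 8.67, 26.9, and 15 CPM in the MGv and 0.516, 3.21, 0, and 1.27 CPM in the VPM (log2FC = -3.65, SE = 0.775, adjusted p = 0.014). Capitals mark the half-site on either strand.
Fos: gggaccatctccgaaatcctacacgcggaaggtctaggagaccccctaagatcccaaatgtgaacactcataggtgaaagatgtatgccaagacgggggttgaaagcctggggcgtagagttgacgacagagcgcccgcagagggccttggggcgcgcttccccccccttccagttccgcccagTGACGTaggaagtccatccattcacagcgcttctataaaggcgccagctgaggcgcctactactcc
Btg2: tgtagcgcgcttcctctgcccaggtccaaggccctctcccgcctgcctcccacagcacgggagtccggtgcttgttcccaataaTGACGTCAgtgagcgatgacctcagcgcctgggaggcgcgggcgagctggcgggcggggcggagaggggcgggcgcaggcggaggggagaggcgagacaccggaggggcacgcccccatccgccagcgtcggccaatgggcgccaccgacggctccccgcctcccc
Atf3: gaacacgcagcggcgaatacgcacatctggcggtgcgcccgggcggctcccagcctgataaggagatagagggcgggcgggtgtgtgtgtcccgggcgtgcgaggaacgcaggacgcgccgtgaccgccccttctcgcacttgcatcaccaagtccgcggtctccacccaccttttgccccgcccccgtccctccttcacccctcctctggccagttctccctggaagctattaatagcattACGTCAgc
In *Btg2* the half-sites of both strands overlap and form the full palindrome. RefSeq promoters were found for 18 of the 23 genes, and 6 of the 18 held TGACGT on either strand (33.3%), beside 7.29% of 27025 genes with a promoter in the table. *Fos*, *Btg2*, and *Atf3*, whose promoters are printed, are among these 6, and the other 12 held no such site. The count covers called and uncalled members together. The TATA element TATAAA was found in 2 of the 18 (11.1%), beside 14.3% of genes, and the serum response element (CArG box) in 1 of the 18 (5.56%), beside 1.62% of genes. These matches describe the sequence and carry no test.

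The genes that the study names for these nuclei rest in part on these same libraries, beside neuron libraries and earlier work. Their direction here is therefore not independent evidence. Of 6 named for the VPM, 5 were called higher in the VPM. *Cck*, the neuropeptide cholecystokinin, stood at 23.3, 4.04, 3.36, and 14.4 CPM in the MGv and 118, 59.5, 87.5, and 216 CPM in the VPM (log2FC = 3.41, SE = 0.594, adjusted p = 0.00657). In the VPM it was highest in replicate d and lowest in replicate b, the order of the summed pan-neuronal markers, and whether neuronal RNA has a part in it was not tested. *Tuba8*, an alpha-tubulin that overlaps an antisense gene in 16.3% of its exonic length, and *Myc*, a growth-promoting transcription factor, had log2FCs of 2.14 and 0.62. The postsynaptic scaffold gene *Homer2* (log2FC = 0.68, SE = 0.211, adjusted p = 0.0548) lost its call without VPM replicate a or d or MGv replicate d, and *Fgf12* was not called (log2FC = 0.44, SE = 0.167, adjusted p = 0.101).

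All 7 genes named for the MGv were called higher there, 4 of them on the shared series. *Crabp2*, which carries retinoic acid to its nuclear receptors, stood at 26.9, 16.3, 8.19, and 31 CPM in the MGv and 0.141, 0.45, 0.245, and 0.634 CPM in the VPM (log2FC = -5.80, SE = 0.528, adjusted p = 0.000514; ENSMUSG00000004885, GRCm38 chr3:87948666-87953376, plus strand). *Gbx2*, a homeobox factor of the developing thalamus, was at 18.5, 7.5, 11.4, and 30.4 CPM in the MGv and 1.13, 0.732, 0.638, and 1.61 CPM in the VPM (log2FC = -4.03, SE = 0.473, adjusted p = 0.00144; ENSMUSG00000034486, GRCm38 chr1:89927956-89931179, minus strand). Every MGv library lay above every VPM library for both genes. The strand setting of the counting is not given in the sources used here, and *Gbx2* shares 43.5% of its exonic length with an antisense gene, so reads of the pair cannot be told apart. *Foxp2*, *Bcl11a*, and *Lhx2*, transcription factors of thalamic and other neurons, had log2FCs of -2.04, -1.85, and -1.84. In the MGv, *Crabp2*, *Gbx2*, *Foxp2*, *Bcl11a*, and *Lhx2* were each highest in replicates a and d, the 2 MGv libraries with the highest pan-neuronal sums. *Sema3f* lost its call without VPM replicate a or d or MGv replicate d, and *Tshz1*, the smallest difference of the 7 (log2FC = -0.45, SE = 0.158, adjusted p = 0.0777), with any one VPM library or MGv replicate a or d left out.

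Transcription factors that pattern the thalamus and its neighbors separated the nuclei in both directions. Of 43 tested, 6 were called higher in the VPM and 23 higher in the MGv, beside 9.35% and 12.7% of all genes tested, with a median log2FC of -0.56. On the shared series, 3 were called higher in the VPM and 16 in the MGv. With the length and GC trend removed the counts were 6 and 18. Toward the VPM, *Six3*, a forebrain homeobox factor, stood at 0.635, 1.17, 1.85, and 2.01 CPM in the MGv and 12.4, 10.8, 13.5, and 6.83 CPM in the VPM (log2FC = 2.93, SE = 0.381, adjusted p = 0.00204). *Zic4*, a zinc finger factor, was at 1.76, 0.425, 1.02, and 2.74 CPM in the MGv and 6.14, 8.84, 6.67, and 8.73 CPM in the VPM (log2FC = 2.34, SE = 0.461, adjusted p = 0.01), and the related gene *Zic1* had a log2FC of 1.34. The libraries of the nuclei did not overlap for *Six3*, *Zic4*, or *Zic1*, and *Zic1* lost its call without VPM replicate c. Toward the MGv, *Irx3* and *Irx5*, Iroquois homeobox factors, stood at 58.7, 98.2, 64.3, and 81.6 CPM and 107, 140.0, 102, and 91.8 CPM in the MGv and at 24.6, 26.9, 23.4, and 21.7 CPM and 38.8, 56, 48.3, and 42.6 CPM in the VPM (log2FCs of -1.65 and -1.25). *Pax3*, a paired box factor of the dorsal neural tube, was at 3.37, 22, 23.8, and 17.7 CPM in the MGv and 0.751, 0.113, 0.147, and 1.02 CPM in the VPM (log2FC = -5.00, SE = 0.711, adjusted p = 0.00293), with MGv replicate a the lowest of its group.

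Guidance molecules, which steer growing axons and migrating cells, were called toward the MGv. Of 21 ephrins and Eph receptors, 10 were called higher in the MGv and none in the VPM (median log2FC, -0.66), with *Efnb3*, *Epha5*, and *Ephb3* at log2FCs of -1.16, -1.14, and -0.93. With the length and GC trend removed 6 were called, and on the shared series 4 were. Of 30 semaphorins, plexins, and neuropilins, 14 were called higher in the MGv and 2 in the VPM. On the shared series the counts were 9 and 3, and with the trend removed they were 11 and 4. The count toward the VPM was 1 without any one of MGv replicates a to c or VPM replicate a, c, or d. The plexin receptor genes *Plxnb1*, *Plxna1*, *Plxnb2*, and *Plxna3* had log2FCs between -1.41 and -1.14. *Plxna1* overlaps an antisense gene in 10.7% of its exonic length. *Sema3d*, a secreted semaphorin, went the other way, at 25.8, 25.4, 20.03, and 32.5 CPM in the MGv and 54.4, 47.1, 63.4, and 50.8 CPM in the VPM (log2FC = 1.06, SE = 0.17, adjusted p = 0.00486). Of 19 Slit, netrin, and receptor genes, 9 were called higher in the MGv and none in the VPM, among them the Slit receptors *Robo1* and *Robo2* (log2FCs of -1.08 and -1.66), and the count was 5 with the trend removed, 5 without VPM replicate a, and 3 on the shared series. Of 23 cadherins and protocadherins, 5 were called higher in the MGv, with *Pcdh19* at the lowest p (log2FC = -1.15, SE = 0.159, adjusted p = 0.00263), and 2 higher in the VPM (1 without VPM replicate a, c, or d). Among all genes tested the shares were 12.7% toward the MGv and 9.35% toward the VPM. They were 8.06% and 9.64% with the trend removed and 5.4% and 2.22% on the shared series. With the trend removed 2 of this list were called higher in the MGv and 3 in the VPM, and on the shared series 2 and none. Toward the MGv 3 were called without VPM replicate a, c, or d or MGv replicate d.

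**Figure D4:**
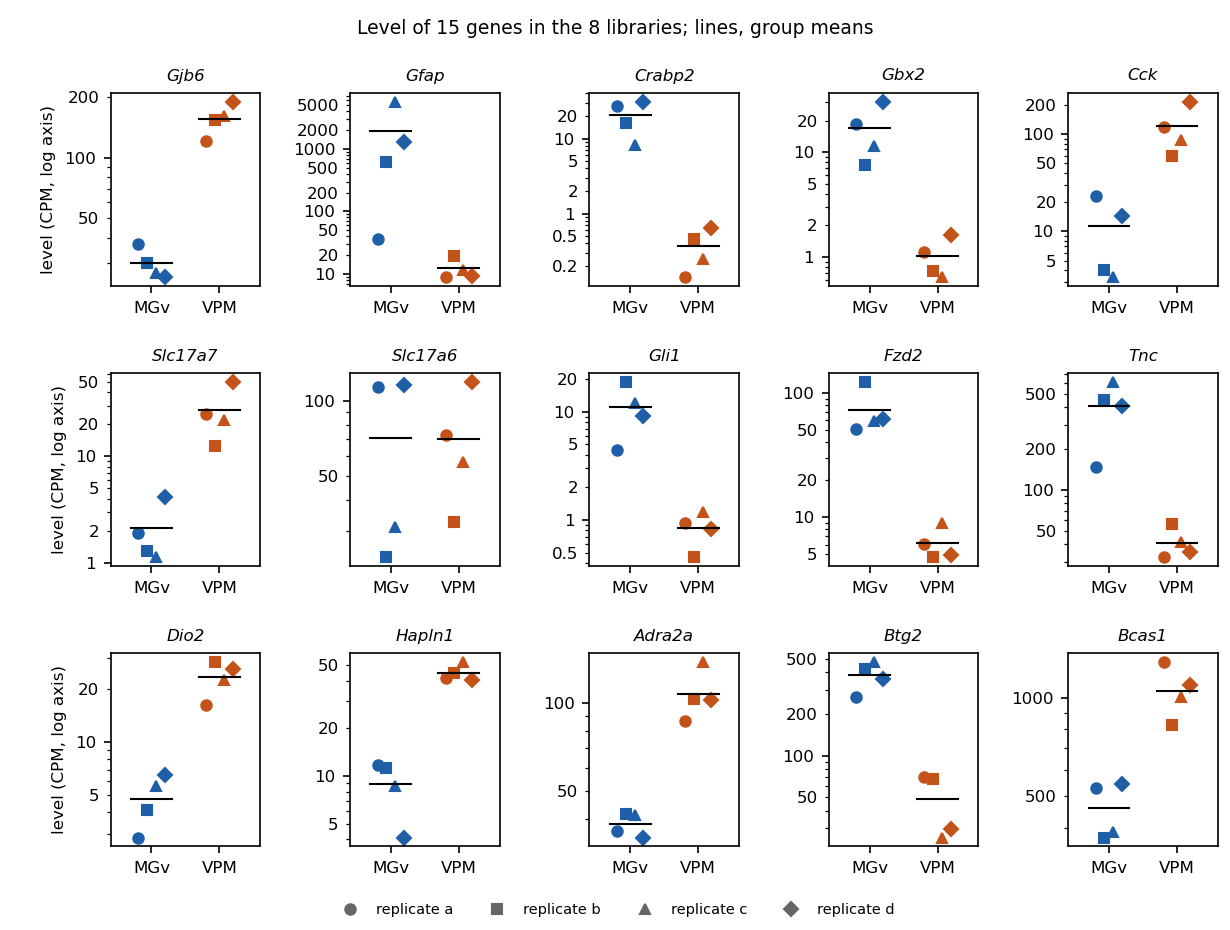
Level (CPM, log axes) of 15 genes in the 4 MGv (blue) and 4 VPM (orange) libraries, with 1 symbol per replicate and a line at each group mean. Except for *Slc17a6*, the libraries of both nuclei did not overlap for the genes shown.

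Matrix genes were called mainly toward the MGv as well. Of 30 tested, 14 were called higher in the MGv and 1 in the VPM, beside 12.7% and 9.35% of all genes tested. With the trend removed the counts were 10 and 4, and on the shared series they were 10 and 1. *Tnc*, the matrix glycoprotein tenascin-C of immature and reactive glia, stood at 147, 456, 615, and 408 CPM in the MGv and 32.2, 56.3, 41.8, and 35.1 CPM in the VPM (log2FC = -3.30, SE = 0.367, adjusted p = 0.0012; ENSMUSG00000028364, GRCm38 chr4:63959785-64047015, minus strand). *Lama4*, a laminin chain, was at 20.3, 21.7, 21.7, and 20.5 CPM in the MGv, where its libraries lay close together, and 6.75, 6.81, 6.03, and 5.32 CPM in the VPM (log2FC = -1.76, SE = 0.174, adjusted p = 0.000647). *Lama1*, *Col4a2*, and *Sparc* had log2FCs of -2.41, -1.51, and -0.80. The exception was *Hapln1*, which links hyaluronan to proteoglycans in perineuronal matrix, at 11.7, 11.3, 8.67, and 4.11 CPM in the MGv and 41.6, 44.9, 52.5, and 40.5 CPM in the VPM (log2FC = 2.33, SE = 0.28, adjusted p = 0.0015). Its 4 VPM libraries lay close together, and MGv replicate d was the lowest library.

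Pathways that signal to progenitors and glia were called toward the MGv at several levels. Among all genes tested, 12.7% were called higher in the MGv and 9.35% in the VPM. In the Sonic hedgehog pathway, 7 of 13 genes were called higher in the MGv and none in the VPM. Those called included targets that the pathway itself switches on, namely the transcription factor *Gli1* (4.45, 18.9, 12, and 9.22 CPM in the MGv and 0.938, 0.45, 1.18, and 0.83 CPM in the VPM; log2FC = -3.70, SE = 0.465, adjusted p = 0.00163) and the receptor *Ptch1* (108, 178, 125, and 129 CPM and 44.8, 66.7, 42.1, and 35.8 CPM; log2FC = -1.51, SE = 0.209, adjusted p = 0.00262). For both genes no VPM library reached the lowest MGv library. The count was 4 with the trend removed, on the shared series, and without VPM replicate a or c or MGv replicate c or d. In the Notch pathway, 11 of 21 genes were called higher in the MGv and 1 in the VPM. The latter was lost without VPM replicate a, c, or d or MGv replicate d and on the shared series, where 10 were called toward the MGv. With the trend removed 8 were called higher in the MGv and 3 in the VPM, and without MGv replicate b 11 and 3. *Hes5*, a Notch effector that keeps progenitors undifferentiated, was at 786, 1659, 737, and 749 CPM in the MGv and 204, 391, 155, and 158 CPM in the VPM (log2FC = -2.12, SE = 0.348, adjusted p = 0.00516), although 31.8% of its exonic length overlaps an antisense gene. The effector *Heyl* and the receptors *Notch3* and *Notch1* had log2FCs of -1.95, -1.91, and -1.33.

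In the Wnt pathway, 11 of 40 genes were called higher in the MGv and 4 in the VPM, beside 12.7% and 9.35% of all genes tested. *Fzd2*, a Wnt receptor, stood at 51.3, 123, 58.9, and 61.1 CPM in the MGv and 6.1, 4.73, 9.03, and 4.98 CPM in the VPM (log2FC = -3.56, SE = 0.317, adjusted p = 0.000512; ENSMUSG00000050288, GRCm38 chr11:102604396-102608058, plus strand). The receptor *Fzd10* was at 55.8, 58.9, 51.9, and 56.3 CPM in the MGv and 73.3, 99.3, 105, and 88.7 CPM in the VPM (log2FC = 0.72, SE = 0.135, adjusted p = 0.0083). The ligand *Wnt3* was also higher in the VPM (log2FC, 1.20), and *Fzd7* and the feedback target *Axin2* were higher in the MGv (-2.33 and -1.15). The 11 calls fell to 7 with the trend removed or without VPM replicate c or d or MGv replicate d, to 6 without VPM replicate a, and to 3 on the shared series, and the 4 toward the VPM fell to 2 without VPM replicate a or c and on the shared series. Of 30 BMP and TGF-beta genes, 8 were called higher in the MGv and 2 in the VPM. *Tgfb2*, a TGF-beta ligand, was at 68.4, 85.8, 95.2, and 75.6 CPM in the MGv and 29.4, 30.9, 33.3, and 30.5 CPM in the VPM (log2FC = -1.39, SE = 0.137, adjusted p = 0.000647). *Bmp4*, another ligand, was at 23.2, 15, 17.2, and 31.3 CPM and 126, 46.5, 94.5, and 88.5 CPM (log2FC = 2.03, SE = 0.299, adjusted p = 0.00359), so that the 2 ligands differed in opposite directions. The 8 calls fell to 3 on the shared series, to 5 without MGv replicate b, to 3 without MGv replicate c or VPM replicate d, and to 2 without VPM replicate a or c, whereas *Tgfb2* and *Bmp4* were called each time. Of 14 retinoic acid genes, 4 including *Crabp2* were called higher in the MGv, and *Aldh1a1*, an enzyme that can make retinoic acid, was the only one called higher in the VPM. On the shared series 2 were called higher in the MGv. *Aldh1a1* was at 8.6, 7.29, 11.7, and 9.77 CPM in the MGv and 23, 43.4, 36.8, and 35.1 CPM in the VPM (log2FC = 1.88, SE = 0.227, adjusted p = 0.0015). Of 20 FGF pathway genes, 1 was called higher in the VPM and 3 in the MGv, beside 9.35% and 12.7% of all genes tested. With the trend removed or on the shared series, 1 was called higher in the MGv. No call toward the MGv remained without VPM replicate a or d and 1 without VPM replicate c or MGv replicate d, while none toward the VPM remained without VPM replicate a or c.

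**Figure D5:**
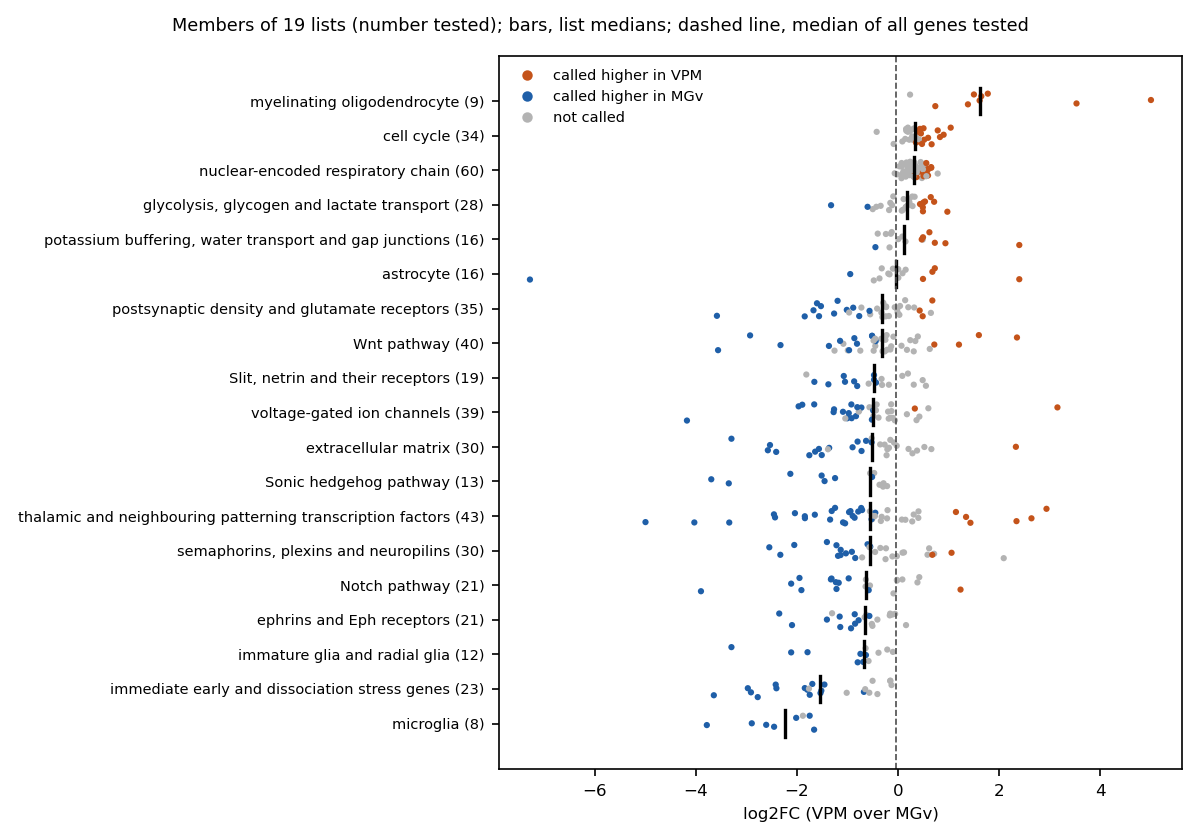
Difference between the nuclei (log2FC, VPM over MGv) of each tested member of 19 gene lists, with the number tested in parentheses. Colored points are called higher in the VPM (orange) or the MGv (blue), gray points are not called, bars mark list medians, and the dashed line marks the median of all genes tested (-0.036), with the lowest medians for the microglia and immediate early lists and the highest for the myelinating oligodendrocyte list.

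Some genes of astrocyte coupling and potassium handling were called toward the VPM. Of 16 genes for potassium buffering, water transport, and gap junctions, 6 were called higher in the VPM, 1 in the MGv, and 9 were not called. The median log2FC was 0.11, and the summed level of the list overlapped between the nuclei. Among all genes tested, 9.35% were called higher in the VPM and 12.7% in the MGv. The call toward the MGv was lost with the trend removed, on the shared series, and with any library but MGv replicate a left out. *Gjb6*, which encodes connexin 30 of astrocyte gap junctions, stood at 37, 29.9, 26.6, and 25.3 CPM in the MGv and 121, 153, 161, and 190.1 CPM in the VPM (log2FC = 2.40, SE = 0.174, adjusted p = 0.000213; ENSMUSG00000040055, GRCm38 chr14:57123303-57133611, minus strand). Its mean was 5.26-fold higher in the VPM, the lowest VPM library was more than 3 times the highest MGv library, and its p was the lowest of all genes called higher in the VPM. *Gjb6* was named for a low p and libraries without overlap, so this gap is not independent evidence. *Kcnj10*, the inwardly rectifying potassium channel Kir4.1, was at 229, 278, 254, and 274 CPM in the MGv and 395, 576, 532, and 474 CPM in the VPM (log2FC = 0.93, SE = 0.142, adjusted p = 0.00391). *Gja1*, encoding connexin 43, and *Kcnj16*, the channel partner of Kir4.1, had log2FCs of 0.73 and 0.62, and the libraries overlapped for *Gja1*. Without VPM replicate c, 3 of the list were called, and *Gja1* was not among them.

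*Gfap*, the intermediate filament gene whose sequences drive the reporter, had the largest fold change of the astrocyte list. It stood at 36.7, 617, 5666, and 1302 CPM in the MGv and 8.82, 19.4, 11.5, and 9.27 CPM in the VPM (log2FC = -7.28, SE = 1.27, adjusted p = 0.00772; ENSMUSG00000020932, GRCm38 chr11:102887336-102900912, minus strand). The MGv libraries spread over more than 2 orders of magnitude, with replicate a the lowest and c the highest, yet all lay above the highest VPM library. The call held with each of the 8 libraries left out in turn and on the shared series (adjusted p = 0.0739). *Vim*, the intermediate filament of immature glia, went with it (181, 398, 550.0, and 303 CPM in the MGv and 91.1, 138, 95.5, and 88.5 CPM in the VPM; log2FC = -1.79, SE = 0.289, adjusted p = 0.00486). Of 12 markers of immature and radial glia, 7 were called higher in the MGv and none in the VPM, *Tnc*, *Vim*, *Hes5*, and *Sox4* having the lowest p values, although 54.6% of the exonic length of *Sox4* overlaps an antisense gene. *Sox9*, a gliogenic transcription factor, was higher in the MGv as well (log2FC = -0.95, SE = 0.179, adjusted p = 0.0083). *S100b*, a calcium-binding protein of more mature astrocytes, was higher in the VPM (222, 242, 167, and 177 CPM in the MGv and 283, 382, 282, and 345 CPM in the VPM; log2FC = 0.68, SE = 0.159, adjusted p = 0.0202).

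Of 10 thyroid hormone genes, 4 were called higher in the VPM, 2 were called higher in the MGv (1 on the shared series), and 4 were not called, with a median log2FC of -0.018 beside -0.036 over all genes tested. *Dio2*, the enzyme that converts thyroxine into active triiodothyronine in astrocytes, stood at 2.88, 4.15, 5.65, and 6.48 CPM in the MGv and 16.3, 28.6, 22.6, and 26.2 CPM in the VPM (log2FC = 2.28, SE = 0.278, adjusted p = 0.0015), and every VPM library was above 2 times the highest MGv library. *Dio2* was named for a low p and libraries without overlap, so this gap is not independent evidence. *Slco1c1*, a thyroxine transporter, and *Hr*, a corepressor gene that thyroid hormone induces, had log2FCs of 0.85 and 1.11. Of 18 receptors of astrocytes, 3 were called higher in the VPM and 2 in the MGv (1 with the trend removed or on the shared series). Among all genes tested the shares were 9.35% and 12.7%. *Adra2a*, an adrenergic receptor, was at 36.6, 41.6, 41.3, and 34.7 CPM in the MGv and 86.9, 103, 138, and 102 CPM in the VPM (log2FC = 1.48, SE = 0.156, adjusted p = 0.000971). The orphan receptor *Gpr37l1* and endothelin receptor *Ednrb* had log2FCs of 0.85 and 0.64, the libraries overlapping for *Ednrb*. Of 15 genes of glutamate and GABA uptake and breakdown, 2 were called higher in the VPM and 1 higher in the MGv, beside 9.35% and 12.7% of all genes tested toward the VPM and the MGv. Those higher in the VPM were *Slc38a3* (log2FC, 0.60), a glutamine transporter, and *Got1* (0.70). The call toward the MGv was lost on the shared series and without MGv replicate b or d or VPM replicate a, c, or d. Without VPM replicate c neither was called, and without VPM replicate a or d only *Slc38a3* was. With the length and GC trend removed, 5 of the list were called higher in the VPM.

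Metabolic lists differed in their calls, which stand beside 9.35% of all genes tested called higher in the VPM and 12.7% in the MGv. Of 28 genes for glycolysis, glycogen, and lactate, 8 were called higher in the VPM and 2 in the MGv (1 with the trend removed or without VPM replicate c). *Ldha*, a lactate dehydrogenase subunit, stood at 334, 323.7, 339.9, and 345 CPM in the MGv and 506, 537, 502, and 555 CPM in the VPM (log2FC = 0.65, SE = 0.109, adjusted p = 0.00559). The glycogen phosphorylase genes split, *Pygm* being higher in the VPM and *Pygl* in the MGv (log2FCs of 0.97 and -1.33). Without VPM replicate d 4 were called toward the VPM, and on the shared series 3 were. Of 60 nuclear-encoded respiratory chain genes, 14 were called higher in the VPM and none in the MGv, with a median log2FC of 0.31 and *Sdhd* at 0.65. That count rested on single libraries, being 46 without MGv replicate b, 9 without VPM replicate c, 7 without VPM replicate b, and 6 without MGv replicate d or VPM replicate a or d. Of 75 ribosomal protein genes, 4 were called higher in the VPM, a smaller share than the 9.35% of all genes tested. That count was 28 without MGv replicate b, 2 without VPM replicate b or c, 1 without MGv replicate d, and none without VPM replicate a or d or on the shared series. On the shared series, 4 respiratory genes were called. Of 7 mitochondrially encoded mRNAs, none was called. Of 29 cholesterol genes, 4 were called in each direction, beside 9.35% and 12.7% of all genes tested toward the VPM and the MGv. The sterol synthesis gene *Msmo1* was higher in the VPM (log2FC = 0.63, SE = 0.129, adjusted p = 0.0126), and the cholesterol exporter *Abca1* and the fatty acid synthase *Fasn* were higher in the MGv (-1.13 and -1.33). The 4 calls toward the VPM fell to 2 without MGv replicate d and to 1 without VPM replicate a, c, or d or on the shared series, and the trend removed gave 7 toward the VPM and 2 toward the MGv.

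Cell cycle genes were called toward the VPM. Of 34 tested, 14 were called higher in the VPM and none in the MGv, beside 9.35% and 12.7% of all genes tested, with a median log2FC of 0.34. *Rrm2*, a ribonucleotide reductase subunit of S phase, stood at 146, 118, 137, and 152 CPM in the MGv and 249.8, 251, 259.6, and 221 CPM in the VPM (log2FC = 0.83, SE = 0.122, adjusted p = 0.00359). *Ccnb1*, the cyclin of mitotic entry, was at 45.3, 43.9, 55.2, and 58.1 CPM and 104, 82, 113, and 79.4 CPM (log2FC = 0.90, SE = 0.156, adjusted p = 0.00655), and *Bub1*, a spindle checkpoint kinase, had a log2FC of 1.04. The libraries did not overlap for these 3 genes, although the proliferation marker *Mki67*, named after its values were seen, overlapped and was not called (log2FC = 0.14, SE = 0.165, adjusted p = 0.605). Counts fell to 6 without VPM replicate a, 7 without VPM replicate c, 9 without VPM replicate d, and 4 on the shared series.

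Genes of maturing oligodendrocytes were higher in the VPM. Of 9 myelinating markers tested, 8 were called higher there and none in the MGv, with a median log2FC of 1.61. *Mobp*, a myelin protein of late differentiation, stood at 0, 0.425, 0.585, and 0.32 CPM in the MGv and 23.5, 2.82, 4.71, and 12.2 CPM in the VPM (log2FC = 5.00, SE = 0.815, adjusted p = 0.00508), with no overlap of the libraries. *Mbp*, named after its values were seen, was at 489.9, 362, 382, and 717 CPM in the MGv and 1962, 554, 1069, and 1492 CPM in the VPM (log2FC = 1.38, SE = 0.338, adjusted p = 0.0241), with VPM replicate b between MGv replicates a and d. In the VPM both genes were highest in replicate a and lowest in replicate b. The summed level of the list ranged from 1417 to 2379 CPM in the MGv and from 2233 to 6088 CPM in the VPM. Precursor markers were called in both directions, *Bcas1*, which marks newly formed oligodendrocytes, toward the VPM (1.20, with 12.6% of its exonic length shared with an antisense gene) and *Cspg4* and *Pdgfra*, which mark precursors, toward the MGv (-1.12 and -0.44). With the length and GC trend removed, neither of the latter was called, and *Pdgfra* also lost its call with any one VPM library or MGv replicate d left out.

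Microglia genes went the opposite way at low levels. Of 8 tested, 7 were called higher in the MGv and none in the VPM, with a median log2FC of -2.24. *C1qb*, a complement subunit, stood at 5.18, 4.73, 4.04, and 4.43 CPM in the MGv and 0.516, 0.563, 0.883, and 1.02 CPM in the VPM (log2FC = -2.61, SE = 0.365, adjusted p = 0.00273). *Cx3cr1*, the fractalkine receptor, was at 11.1, 2.13, 6.92, and 9.22 CPM and 1.22, 0.845, 0.442, and 1.42 CPM (log2FC = -2.90, SE = 0.522, adjusted p = 0.00718). The list summed to 17.4 to 61.1 CPM in the MGv, lowest in replicate b, and to 7.08 to 12.2 CPM in the VPM, and 3 members were called on the shared series.

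Among genes of neurotransmission, single genes stood out rather than whole lists toward the VPM. *Slc17a7*, the vesicular glutamate transporter VGLUT1, stood at 1.91, 1.28, 1.12, and 4.15 CPM in the MGv and 24.8, 12.4, 21.7, and 50.1 CPM in the VPM (log2FC = 3.68, SE = 0.499, adjusted p = 0.0023), with all VPM libraries above all MGv libraries. *Slc17a6*, the transporter VGLUT2 of thalamic relay neurons, named after its values were seen, was at 114, 23.4, 30.9, and 116 CPM in the MGv and 72.8, 32.5, 56.7, and 119 CPM in the VPM and was not called (log2FC = -0.015, SE = 0.508, adjusted p = 0.989). *Snap25*, a presynaptic SNARE protein, was not called either (log2FC = 0.38, SE = 0.365, adjusted p = 0.516). In the VPM, *Slc17a7*, *Slc17a6*, *Snap25*, and *Nefm* were each highest in replicate d and lowest in replicate b, as the pan-neuronal sum was. Of 28 synaptic vesicle genes, 2 were called higher in the VPM and 7 in the MGv (4 with the trend removed or on the shared series), among the latter *Sv2c* (-1.96) and *Cplx2* (-1.74), whereas the related complexin gene *Cplx1* was higher in the VPM (1.22). Of 35 postsynaptic genes, 12 were called higher in the MGv and 3 in the VPM, the latter 1 without VPM replicate c or d or MGv replicate d and none without VPM replicate a. *Nrgn*, a calmodulin-binding protein of dendrites, was at 12.1, 40.2, 14.3, and 43.1 CPM in the MGv and 2.67, 2.08, 2.6, and 1.76 CPM in the VPM (log2FC = -3.58, SE = 0.433, adjusted p = 0.0015), and *Grin2b*, an NMDA receptor subunit, had a log2FC of -1.67. The 12 were 7 with the trend removed and 6 on the shared series. Of 39 voltage-gated channel genes, 16 were called higher in the MGv, with the T-type calcium channel *Cacna1h* (-1.97) and the potassium channel *Kcnd3* (-0.92) among the lowest p values, and 2 higher in the VPM, none without VPM replicate a or d and 1 without VPM replicate c or MGv replicate c or d. The 16 were 10 with the trend removed and 9 on the shared series. Of 17 GABA and glycine receptor genes, 3 were called higher in the VPM and 4 in the MGv (2 with the trend removed and 1 on the shared series). The subunits *Gabrg1*, expressed by glia, and *Gabra4* were higher in the VPM (0.83 and 0.84) and *Gabra5* in the MGv (-2.30). Of 28 synapse regulators that astrocytes secrete, 2 were called higher in the VPM, neither without VPM replicate a or c and 1 without VPM replicate d, and 5 in the MGv (3 with the trend removed and 2 on the shared series), with *Cbln4*, a synapse organizer, at 12.2, 5, 10.8, and 25 CPM in the MGv and 2.06, 2.14, 2.35, and 2.93 CPM in the VPM (log2FC = -2.48, SE = 0.422, adjusted p = 0.00578). The counts of these lists with all 8 libraries and no trend removed stand beside 9.35% of all genes tested toward the VPM and 12.7% toward the MGv. Those with the trend removed stand beside 9.64% and 8.06%, and those on the shared series beside 2.22% and 5.4%.

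Some genes were detected in 1 nucleus and nearly or fully absent from the counts of the other. *Adcyap1* and *Pdyn*, which encode neuropeptide precursors, stood at 0.684, 2.61, 2.53, and 7.85 CPM and 0.489, 1.28, 1.85, and 1.73 CPM in the MGv and had 0 counts in all 4 VPM libraries, which makes their mean at least 20.2-fold and 7.92-fold higher in the MGv when set against 3 counts in a library. Of 16 neuropeptide and granin genes, 4 were called higher in the MGv and 2 in the VPM, the latter 1 without any one of MGv replicates b to d or VPM replicate a, c, or d. *Nts*, the neuropeptide neurotensin, was at 10.4, 8.93, 6.87, and 38.3 CPM in the MGv, with 5 counts over the 4 VPM libraries (log2FC = -7.88, SE = 0.848, adjusted p = 0.000987). *Otof*, otoferlin, was at 20.2, 5.42, 4, and 9.13 CPM in the MGv, with 3 counts over the 4 VPM libraries, a ratio of 260.0 with a counting interval of 88.7 to 1264. In the other direction, *Tph2*, the serotonin-synthesizing enzyme of raphe neurons, and *Mup6*, of the multicopy major urinary protein family whose members can share reads, stood at 0.844, 0.788, 2.35, and 1.12 CPM and 0.938, 2.53, 1.62, and 1.27 CPM in the VPM and had 0 counts in the MGv, so that they were at least 8.01-fold and 9.97-fold higher. *Serpinb9b*, *Csrp3*, and *Fmod* had between 2 and 3 counts over the 4 MGv libraries and ratios of 52.4 (17.6 to 257), 41.9 (14 to 206), and 47.5 (12.8 to 398). All of these genes were called in every alternative that tested them, and they were below 10 CPM in every library except for *Nts* and *Otof*. They were chosen among called genes, so the repeated calls are not independent evidence.

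The remaining genes with the lowest p values and no overlap came from diverse functions. Toward the MGv, *Efhd2*, a calcium-binding regulator of actin, stood at 177, 215, 167, and 177 CPM in the MGv and 45.5, 66.2, 48.8, and 56.6 CPM in the VPM (log2FC = -1.76, SE = 0.149, adjusted p = 0.000512; ENSMUSG00000040659, GRCm38 chr4:141858142-141874920, minus strand). *Calb2*, the calcium buffer calretinin, was at 67.4, 51.2, 69.8, and 132 CPM and 8.49, 6.19, 10.01, and 8.88 CPM (log2FC = -3.25, SE = 0.288, adjusted p = 0.000512). *Trim47*, *Cpne6*, and *Crip2* had log2FCs of -2.75, -2.91, and -2.24. Toward the VPM, *Slc13a3*, a sodium-coupled transporter of dicarboxylates, stood at 52.2, 44.6, 36.4, and 33.3 CPM in the MGv and 106, 142, 180.1, and 145 CPM in the VPM (log2FC = 1.78, SE = 0.189, adjusted p = 0.000971). *Apln*, the peptide ligand apelin, was at 11, 9.15, 17.5, and 14.1 CPM and 39.1, 43.1, 52.9, and 50.1 CPM (log2FC = 1.84, SE = 0.211, adjusted p = 0.00126). The metallopeptidase gene *Amz1*, the septin *Sept4*, and the matrix gene *Vwa1* had log2FCs of 1.35, 1.36, and 1.17, and 25.2% of the exonic length of *Vwa1* overlaps an antisense gene. These 10 genes were called in every alternative. They were chosen for a low p and for libraries without overlap, so neither the gap nor the repeated calls are independent evidence. The same holds for the genes of earlier paragraphs named by this rule, among them *Gjb6*, *Adra2a*, *Aldh1a1*, *Hapln1*, and *Dio2*.

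Levels in the 5 dLG libraries, scaled together with all 17 libraries, are given beside those of both nuclei without a test. On that scale *Crabp2*, *Gbx2*, and *Fzd2* averaged 0.155, 1.07, and 2.28 CPM in the dLG, beside 0.37, 1.04, and 6.29 CPM in the VPM and 20.3, 16.7, and 72.1 CPM in the MGv. *Dio2*, *Adra2a*, and *Hapln1* averaged 6.53, 26, and 14.4 CPM in the dLG, beside 4.71, 37.8, and 8.77 CPM in the MGv and 23.6, 108, and 45.4 CPM in the VPM. For these 6 genes the dLG mean lay nearer to the nucleus with the lower level. *Gjb6*, *Fos*, and *Tnc* averaged 76.3, 1657, and 221 CPM in the dLG, between 29.2, 2495, and 398 CPM in the MGv and 158, 709, and 41.7 CPM in the VPM. *Calb2* was at 78.3 CPM in the dLG, close to its MGv mean of 78.8 CPM and far from its VPM mean of 8.49 CPM.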

How the data were processed

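Members and gene lists were chosen with earlier results of these data known. Reads were sequenced and mapped by the authors (FastQC 0.11.7, STAR 2.7.0d, SAMtools 1.9, build mm10, per the submitters' processing notes), who deposited raw read counts per gene from featureCounts (Subread 1.6.4); the strand setting is not given in the sources used here. Of 26556 genes listed, 26548 matched the annotation used for symbols, coordinates, and overlaps. The 8 libraries were grouped by the nucleus in the label. Counts were scaled by TMM, filtered with filterByExpr, and tested with edgeR 4.0.16 (robust quasi-likelihood fit, R 4.3.3) with Benjamini-Hochberg adjustment over the 16273 genes tested and a threshold of 0.1. DESeq2 1.42.0, other scalings and filters, the library number series, the replicate letter as a block, and each library left out were tried as alternatives, and length and GC trends were removed with a loess fit per library, entered as offsets in the same edgeR fit, an alternative chosen after seeing the data. Procedures were tested on simulated data. Totals of 18213687 to 21519981 counts set the precision. Named genes are those the study names, in each direction the 10 with the lowest p and the 5 with the largest log2FC without overlap of the groups, and up to 4 called members of each list per direction. *Fos*, *Atf3*, *Mbp*, *Ddx3y*, *Slc17a6*, *Aqp4*, *Aldh1l1*, *Snap25*, *Cldn5*, *Gad2*, *Mki67*, and the heat shock genes were added after their values were seen. Some listed genes have no row in the counts used here, and the cortex and dLG libraries were used only where stated. Some genes are not reported here.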

Additional observations from a re-analysis of the deposited data

Results flagged for a closer look

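In a test of the highest and lowest library within each group of 4 (Dixon's ratio of the gap to the group's range, past its 95% critical value), 16 of 298 groups tested had a library far from the other 3, and chance alone gives about 1 in 20. The ratios follow with the level in that library and the range of the other 3. In the MGv, replicate d was highest for *Amz1* (ratio 0.950, 57.5 CPM against 46.3 to 46.9) and *Nts* (0.887, 38.3 CPM against 6.87 to 10.4), and for *Fmod* it alone had counts (1, 0.0913 CPM against 0). Replicate b was highest for *Fzd2* (0.863, 123 CPM against 51.3 to 61.1) and *Hes5* (0.947, 1659 CPM against 737 to 786), replicate c for *Ednrb* (0.982, 2073 CPM against 1315 to 1329) and for the summed immediate early and stress genes (0.943, 8184 CPM against 6266 to 6375), and replicate a alone had counts of *Serpinb9b* (1, 0.147 CPM against 0). In the VPM, replicate c was highest for *Bub1* (0.862, 78.9 CPM against 56.8 to 59.9) and *Msmo1* (0.950, 1219 CPM against 1017 to 1027) and lowest for *Sox4* (0.832, 143 CPM against 185 to 194). Replicate d was highest for *Sept4* (0.851, 68.5 CPM against 52.9 to 55.2), lowest for *Fzd7* (0.843, 3.03 CPM against 5.84 to 6.36), and alone had counts of *Otof* (1, 0.146 CPM against 0). Replicate b was highest for *Vim* (0.858, 138 CPM against 88.5 to 95.5), and replicate a was highest for the summed GABAergic neuron markers (0.847, 26.7 CPM against 23 to 23.6). Apart from *Ednrb* and the GABAergic sum, the libraries of the nuclei did not overlap for these quantities. Several of these genes were named for libraries without overlap, so that is not independent evidence. For *Fmod*, *Serpinb9b*, and *Otof* a ratio of 1 follows whenever a single library has counts, and those counts were few.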

How the results depend on the processing

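The comparison called 1522 genes higher in the VPM and 2060 higher in the MGv, and the alternatives called the following numbers, not all among these genes. There were 389 and 947 on the shared library number series alone, 510 and 1023 with that series as a covariate, 785 and 1194 in a fit with the dLG libraries, 820 and 1315 at an adjusted p under 0.05, and 241 and 901 with a log2FC beyond 1 in size. Removing each library's length and GC trend, an alternative chosen after seeing the data, gave 1569 and 1312. Leaving out each library in turn gave between 694 and 1761 genes higher in the VPM and between 1174 and 2267 higher in the MGv. Other scalings, filters, the nonrobust fit, the fit of all 17 libraries, and DESeq2 gave counts within 1.5 times of these. Same-letter correlations of deviations ran from -0.022 to 0.25 and different-letter correlations from -0.44 to 0.28. What the replicate letter stands for is not given, so these values cannot settle whether it pairs the libraries. With the replicate letter as a block 2084 and 2432 genes were called. Of the named genes, those that changed sign were called in no alternative. *Slc17a6* had log2FCs of 0.013 without a filter, 0.18 with the replicate block, 0.31 with the series as a covariate, 0.32 on the shared series, and 0.023 in the fit of all 17 libraries, and ranged from -0.39 to 0.36 with libraries left out. *Aqp4* had -0.0066 with upper-quartile scaling, -0.010 with at least 10 counts in every library, and -0.14 with the trend removed, and ranged from -0.19 to 0.39 with libraries left out. *Cldn5* had 0.66 with the replicate block, 0.30 with the series as a covariate, and 0.30 on the shared series, and ranged from -0.83 to 1.03 with libraries left out. *Ddx3y* ranged from -0.81 to 0.084 with libraries left out. The cause of these changes was not tested. Depth limits genes near 3 counts in a library, and pools of sorted cells limit what can be said of cell types.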
